A study of Mus musculus with 6 samples.

Results

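The chemokine ligands described here are the CC and CXC families, taken as every gene of the deposited mouse table whose symbol is Ccl or Cxcl followed by a number and at most 1 letter. This rule found 36 of 36842 listed genes, 23 CC and 13 CXC ligands, all 36 placed by the GENCODE M21 annotation of GRCm38. Of the 36 ligands, 19 were above 1 FPKM on average over the 6 libraries, 12 of them CC and 7 CXC, and 17 were below. FPKM is the number of fragments of a gene divided by its transcript length and by the library total. The 19 averaged between 1.18 and 30.9 FPKM, and the highest average among the 17 was 0.769 FPKM.

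The libraries are labelled as GC-2spd(ts), a line made by immortalising mouse spermatocytes, with the genotype WT, the tissue testis and the cell type spermatocyte. The 3 CP libraries came from cells kept for 24 h in 2 mM cyclophosphamide, an alkylating anticancer drug that harms developing germ cells. The 3 Sal_CP libraries came from cells given that cyclophosphamide dose together with 100 µM salidroside, a phenylethanoid glycoside of Rhodiola, over 24 h. Both groups therefore carry the drug, and the comparison asks what salidroside added to it; cells without cyclophosphamide are not analysed here. The labels do not say whether the 3 libraries of a group were separate cultures, and the spread behind each p-value is that of these libraries alone, which may be technical.

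Chemokines are small secreted proteins that steer leukocytes along concentration gradients by binding receptors with a G protein partner. CC ligands carry their first conserved cysteines side by side, and CXC ligands carry them with a residue between. Many are switched on by NF-κB, the inflammatory transcription factor named in the title of the series, and some by interferon. In the male tract they are made mainly by macrophages and epithelial or stromal cells.

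Several markers went against a pure spermatocyte line. The 10 spermatid markers summed to between 33008 and 78504 FPKM, led by Smcp and Prm2. The 10 spermatocyte markers were all detected and summed to 1206, 1435 and 1780 FPKM in the Sal_CP libraries and to 1184, 1234 and 797 FPKM in the CP libraries, nearly all of it from Pgk2 (564.4 to 1346 FPKM) and Ldhc (156 to 424 FPKM), with Sycp3 at 1.39 to 3.75 FPKM and Dmc1 at 0.0345 to 0.299 FPKM. Macrophage markers were present in every library, with 12 of 12 detected and sums of 1206, 341 and 215 FPKM in Sal_CP against 635, 447 and 302 in CP. Neutrophil markers were detected for 9 of 10 genes (Elane was listed at 0) and summed to 11.2 to 12.4 FPKM in Sal_CP and 18.5 to 34.5 in CP. Lymphocyte markers were detected for 12 of 12 genes, with sums of 9.27 to 21.5 FPKM in Sal_CP and 8.12 to 12.3 in CP. Epididymal markers summed to 2324 to 3429 FPKM in Sal_CP and 5335 to 5874 in CP, with Lcn9 at 0. Of 6 tested epididymal markers 5 lay below 0 (60.5% of all tested genes did). The test was passed by 2 of them (0.0735% of all tested genes), both lower in Sal_CP. These were Akr1b7 (log2 change -3.24, SE 0.39, limma adjusted p = 0.0152) and Defb42 (log2 change -2.52, SE 0.37, limma adjusted p = 0.0319). Fibroblast and smooth muscle markers, 10 of 10 detected, summed to 41.0 to 74.2 FPKM in Sal_CP against 68.6 to 165 in CP. Among 12 genes of epithelial junctions and keratins, all tested, 11 lay below 0 (60.5% of all tested genes did). An unadjusted limma p below 0.05 was found for 9, all lower in Sal_CP (6.77% of all tested genes were so). The median log2 change was -1.01, and the sums were 551 to 697 FPKM in Sal_CP against 613 to 819 in CP. Cldn3, the member above 0 (log2 change 0.49), was the largest part of these sums. It was at 403, 551 and 452 FPKM in Sal_CP and 486, 306 and 244 FPKM in CP. Sertoli markers, with Fshr at 0, summed to 79.6 to 143 FPKM in Sal_CP and 448 to 776 in CP, nearly all from Clu, which passed the test (log2 change -2.53, SE 0.38, limma adjusted p = 0.0319). The part these cell types play in the ligand levels was not tested. In bulk RNA, fewer cells of a type and less RNA per cell cannot be told apart.

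Summed over all 36 ligands, the libraries held 239, 75.2 and 54.2 FPKM in Sal_CP replicates 1, 2 and 3 and 221, 204 and 113 FPKM in CP. Sal_CP replicate 1 was the highest of all libraries and the other Sal_CP libraries were the lowest, so the groups overlapped. Among the 19 ligands above 1 FPKM, Sal_CP replicate 1 held the highest value for 6 (Cxcl1, Cxcl2, Cxcl16, Ccl3, Ccl4 and Ccl27a) and Sal_CP replicate 3 the lowest value for 14. CP replicate 2 held the highest value for 7, among them all of Ccl2, Ccl7, Ccl12, Cxcl9 and Cxcl10.

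**Figure D1:**
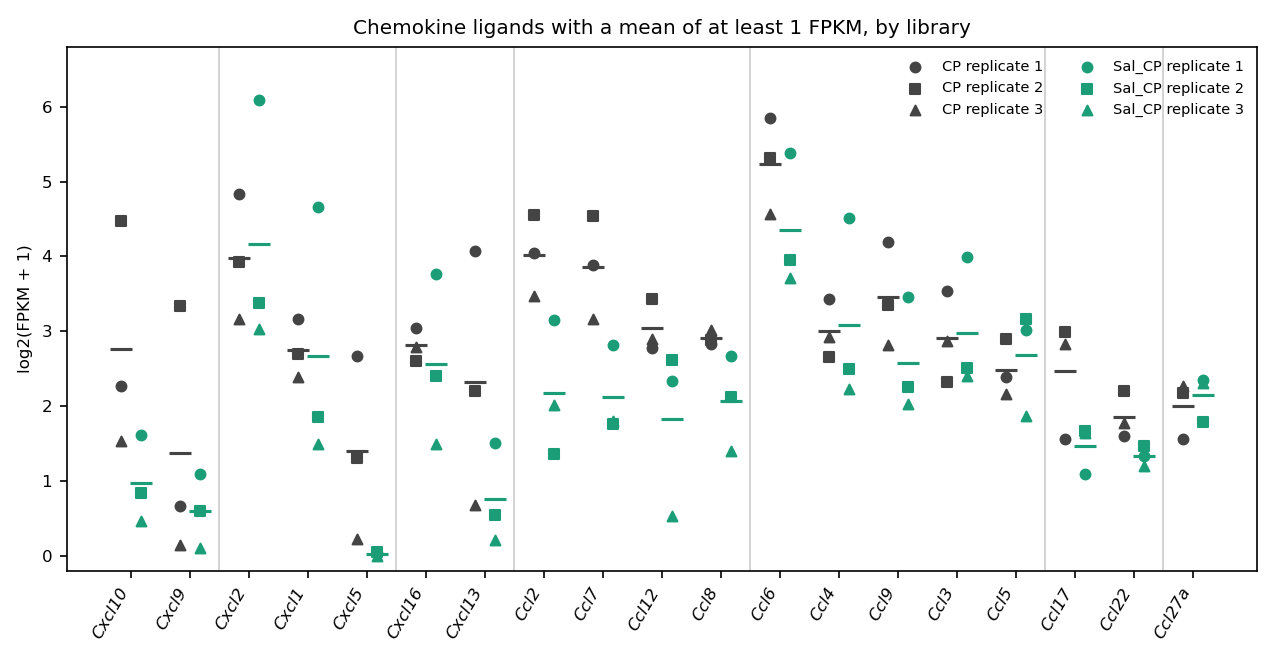
Level of each of the 19 ligands with a mean of at least 1 FPKM, as log2(FPKM + 1), in every library. Points are libraries (circle, square and triangle for replicates 1, 2 and 3; grey for CP, green for Sal_CP), dashes are group means, and vertical lines separate the ligand groups by receptor and role. Ccl2, Ccl7, Ccl8, Ccl12, Ccl22 and Cxcl5 are the 6 ligands whose groups do not overlap.

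In limma, run over the 12241 genes that average 1 FPKM or more, 0 of the 19 ligands passed an adjusted p of 0.05, where 9 genes did, all lower in Sal_CP (0.0735% of genes tested; 0 were higher). At an unadjusted p below 0.05, 8 ligands lay lower and 0 higher, where 6.77% of all tested genes lay lower and 3.96% higher. Groups did not overlap, with every Sal_CP library below every CP library, for 6 of the 19 (10.0% of all tested genes); the reverse held for 0 ligands and 7.21% of genes. The log2 change, Sal_CP minus CP on log2(FPKM + 1), was below 0 for 14 of the 19 (60.5% of all tested genes) and below -1 for 6 (1.76%). The median change was -0.84 for the 19 and -0.12 for all tested genes. Of the 19, Cxcl5, Cxcl9 and Cxcl13 reached the filter only through CP, where they are high, so these counts and medians describe the ligands and support no statement about the family.

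The authors' deposited table, whose test is not given in the sources used here, marks 4 of the 34 ligands above 0 as significant, all lower in Sal_CP (0.42% of the 32375 genes above 0 in a library are marked so). In the authors' deposited table the log2 ratio of group means is -6.98 for Cxcl5 (q = 3.26e-06), -2.01 for Ccl7 (q = 0.00992), -3.06 for Cxcl10 (q = 0.0131) and -1.95 for Ccl2 (q = 0.0265). Cxcl13 has -3.03 and a q of 0.102 in the authors' deposited table, and is not marked. limma gave the same 4 ligands its 4 smallest p-values among the ligands, without passing its threshold over all genes.

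**Figure D2:**
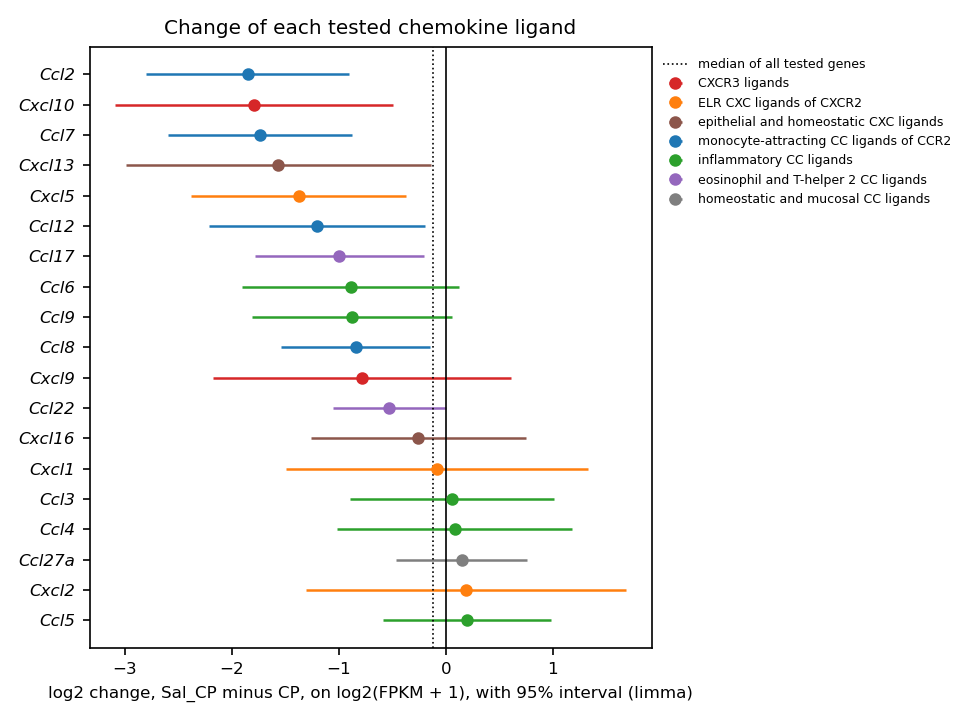
Change of each of the 19 ligands, Sal_CP minus CP, on log2(FPKM + 1). Points are limma estimates and bars 95% intervals, coloured by ligand group; the solid line marks 0 and the dotted line the median of all tested genes, -0.12. Ccl2, Ccl7, Ccl12 and Ccl8 have intervals wholly below 0, as do Cxcl10, Cxcl5, Cxcl13 and Ccl17 of other ligand groups. The intervals of the remaining ligands, among them Cxcl1, Cxcl2, Ccl3, Ccl4 and Ccl5, span 0.

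The monocyte-attracting ligands grouped by CCR2, the receptor that brings monocytes out of the bone marrow and into tissue, stood lower in every Sal_CP library than in any CP library for all 4 members, Ccl2, Ccl7, Ccl8 and Ccl12 (10.0% of all tested genes did so), though none passed the test over all genes. Ccl2, the main monocyte attractant, was at 7.86, 1.55 and 3.03 FPKM in Sal_CP and at 15.4, 22.5 and 10.04 FPKM in CP. Its group means were 4.15 ± 3.30 and 16.0 ± 6.26 FPKM (SD, n = 3 each), 3.86 times higher in CP, with a log2 change of -1.85 (SE 0.43, 95% interval -2.80 to -0.90, limma adjusted p = 0.207). Sal_CP replicate 1 was the highest of its group and CP replicate 3 the lowest of the other, and the groups did not overlap.

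Ccl7, a close relative of Ccl2 that also binds CCR2, was at 6.05, 2.40 and 2.47 FPKM in Sal_CP and at 13.8, 22.2 and 7.96 FPKM in CP. The means, 3.64 ± 2.09 and 14.6 ± 7.18 FPKM, differed by a log2 change of -1.74 (SE 0.39, 95% interval -2.59 to -0.88, limma adjusted p = 0.203), the smallest p of any ligand. Ccl2 and Ccl7 had the same order of libraries within CP, replicate 2 highest and replicate 3 lowest.

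Ccl12, a mouse monocyte attractant, was at 4.06, 5.15 and 0.448 FPKM in Sal_CP and at 5.85, 9.83 and 6.44 FPKM in CP, a log2 change of -1.21 (SE 0.46, limma adjusted p = 0.444). Without Sal_CP replicate 3, where Ccl12 was lowest, its change was -0.56. Ccl8, grouped here by its monocyte-attracting relatives though in mouse it is known chiefly as a ligand of CCR8, was at 5.38, 3.36 and 1.65 FPKM in Sal_CP and at 6.10, 6.38 and 7.06 FPKM in CP, a log2 change of -0.84 (SE 0.32, limma adjusted p = 0.444). Its CP libraries lay close together (6.52 ± 0.493 FPKM) and its Sal_CP libraries apart (3.46 ± 1.87), and the change without Sal_CP replicate 3 was -0.51.

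The summed level of these 4 ligands was 23.4, 12.5 and 7.60 FPKM in Sal_CP and 41.2, 61.0 and 31.5 FPKM in CP, without overlap. Sal_CP replicate 1, which had the highest macrophage marker sum of all libraries (1206 FPKM), was below every CP library in the sum of the 4 ligands. All 12 macrophage markers but Cd163, Itgam and Aif1 were highest in Sal_CP replicate 1. Between the groups the 12 did not all differ the same way. Of these 8 lay below 0 (60.5% of all tested genes did), with a median log2 change of -0.06. Those above 0 were Aif1 (log2 change 0.50), Cd68 (0.34), Csf1r (0.25) and C1qb (0.15). Cd163, the marker of smallest p, was at 1.25, 0.815 and 0.678 FPKM in Sal_CP and 5.27, 2.73 and 3.76 FPKM in CP (log2 change -1.34, limma adjusted p = 0.115). It reached the filter only through CP, with means of 0.914 FPKM in Sal_CP and 3.92 FPKM in CP. Whether macrophage content bears on these ligands was not tested. Ccr2 itself, the receptor on monocytes, averaged just under 1 FPKM; its Sal_CP libraries had 0.810, 0.728 and 0.512 FPKM and its CP libraries 1.46, 1.53 and 0.874 FPKM. Ccr8 lay between 0 and 0.309 FPKM in the 6 libraries.

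All 4 lie in a single cluster on chromosome 11. In GRCm38 coordinates with GENCODE M21, Ccl2 spans 82035571 to 82037453, Ccl7 82045712 to 82047525, Ccl12 82101845 to 82103400 and Ccl8 82115185 to 82116799, each on the plus strand and protein-coding. Ccl2 lies within Gm17268, a gene of the opposite strand that is not used here. Ccl11, the eosinophil attractant eotaxin, lies between Ccl7 and Ccl12 and was not tested; it had 0.335, 0 and 0 FPKM in Sal_CP against 0.600, 0.0526 and 0.243 FPKM in CP.

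The promoter windows of 2 of these neighbours are printed to show what they hold beside those of Cxcl10, Cxcl1 and Cxcl2. Windows run from 250 bases before to 50 after the RefSeq start (GRCm38.p6), and capitals mark matches to GAAA followed after any 2 bases by GAAA (an interferon response element), GGG followed after any 3 bases by TTCC (a κB element), TGANTCA (an AP-1 element) and TATAAA, searched on both strands. Among 32851 mouse promoter windows 3.44% hold the interferon element, 5.56% the κB element, 7.81% the AP-1 element and 13.6% TATAAA. Of the 25 ligands with a window, 3, 7, 6 and 9 in turn had a match in any of their windows. The ligands were counted by gene and the percentages by window, so the 2 are unlike measures.
Ccl12, chr11:82101595-82101894, plus strand: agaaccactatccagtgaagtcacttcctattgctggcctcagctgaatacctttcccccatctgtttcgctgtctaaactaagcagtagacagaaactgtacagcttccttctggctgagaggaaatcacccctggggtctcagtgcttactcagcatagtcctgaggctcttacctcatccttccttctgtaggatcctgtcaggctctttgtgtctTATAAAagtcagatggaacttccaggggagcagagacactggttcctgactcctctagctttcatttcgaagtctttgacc
Ccl8, chr11:82114935-82115234, plus strand: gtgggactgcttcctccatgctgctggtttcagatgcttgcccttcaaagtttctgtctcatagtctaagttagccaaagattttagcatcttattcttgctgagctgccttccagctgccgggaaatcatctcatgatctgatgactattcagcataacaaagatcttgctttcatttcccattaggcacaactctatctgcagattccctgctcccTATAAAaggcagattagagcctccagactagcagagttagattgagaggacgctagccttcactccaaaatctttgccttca
In both windows the only match was TATAAA, at bases 220 to 225 of the window for Ccl12 and 219 to 224 for Ccl8. A match here is a run of letters, not a measured binding site, and the data hold no measure of binding.

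**Figure D3:**
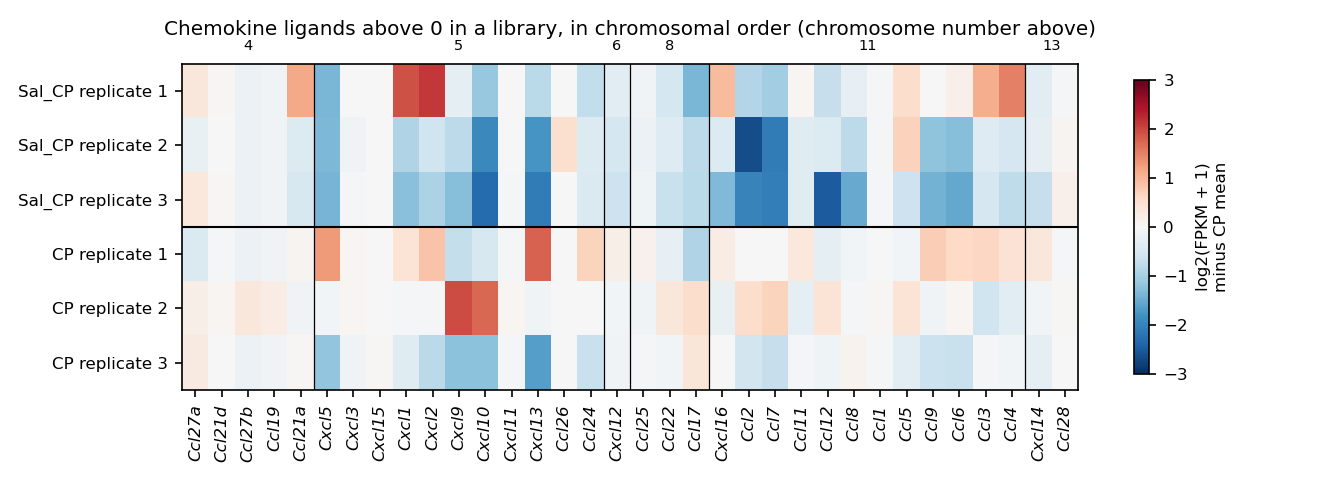
Difference of each library from the CP mean on log2(FPKM + 1) for the 34 ligands above 0 in a library, in chromosomal order, with the chromosome number above; blue is below and red above the CP mean. On chromosome 11, Ccl2, Ccl7, Ccl12 and Ccl8 are blue in all 3 Sal_CP libraries, whereas Ccl3 and Ccl4 are red in Sal_CP replicate 1. On chromosome 5, Cxcl1 and Cxcl2 are red in that library and Cxcl9 and Cxcl10 in CP replicate 2.

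The ligands of CXCR3, a receptor of activated T cells, include Cxcl9 and Cxcl10, which interferon-γ induces. Cxcl10 was at 2.07, 0.787 and 0.377 FPKM in Sal_CP and at 3.83, 21.3 and 1.89 FPKM in CP. CP replicate 2 stood far above all other libraries, and Sal_CP replicate 1 lay above CP replicate 3, so the groups overlapped. The means were 1.08 ± 0.883 and 9.0 ± 10.7 FPKM, with a log2 change of -1.79 (SE 0.59, limma adjusted p = 0.402) that was -0.93 without CP replicate 2.

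Cxcl9 was at 1.13, 0.512 and 0.0692 FPKM in Sal_CP and at 0.578, 9.12 and 0.0993 FPKM in CP. CP replicate 2 was again the highest by far, and in the other 5 libraries the groups were interleaved. The log2 change was -0.78 (SE 0.64, limma adjusted p = 0.565), and it was 0.20 without CP replicate 2. Cxcl11, annotated as a polymorphic pseudogene in GENCODE M21, did not exceed 0.0708 FPKM. Ifng, the gene for interferon-γ, was also highest in CP replicate 2, at 0.820, 0.219 and 0 FPKM in Sal_CP and 0.170, 1.54 and 0.107 FPKM in CP. Cxcr3 lay between 0.102 and 0.700 FPKM.

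The 3 genes are neighbours on the minus strand of chromosome 5, Cxcl9 at 92321347 to 92328079, Cxcl10 at 92346638 to 92348889 and Cxcl11 at 92359544 to 92365485. Cxcl10 and Cxcl11 lie whole within Art3, a gene of the opposite strand at 3.08 to 3.66 FPKM in Sal_CP and 1.56 to 2.31 in CP, and the sources used here do not say whether counting used strand. The Cxcl10 window is shown because it holds each of the inflammatory elements searched.
Cxcl10, chr5:92348840-92349139, minus strand: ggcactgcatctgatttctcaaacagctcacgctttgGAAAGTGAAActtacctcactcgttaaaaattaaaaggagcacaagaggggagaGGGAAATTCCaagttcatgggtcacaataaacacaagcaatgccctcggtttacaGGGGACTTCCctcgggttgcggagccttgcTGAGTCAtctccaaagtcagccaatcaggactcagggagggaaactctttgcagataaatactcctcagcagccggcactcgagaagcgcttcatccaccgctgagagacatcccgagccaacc
The interferon element lay at bases 38 to 47 of the window, κB elements at 92 to 101 and 147 to 156, and an AP-1 element at 177 to 183. Cxcl9, with no κB or interferon match in its own window, had an AP-1 match at 282 to 288.

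The neutrophil attractants that bind CXCR2 and carry an ELR motif before the first cysteine were led by Cxcl2, and the groups overlapped for Cxcl2 and Cxcl1 but not for Cxcl5. Cxcl2 was at 66.9, 9.36 and 7.17 FPKM in Sal_CP and at 27.6, 14.2 and 7.94 FPKM in CP. Sal_CP replicate 1 was the highest of the 6 libraries, while Sal_CP replicate 2 fell among the CP libraries. The means of 27.8 ± 33.9 and 16.6 ± 10.03 FPKM gave a log2 change of 0.19 (SE 0.68, 95% interval -1.31 to 1.68, limma adjusted p = 0.889).

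Cxcl1 was at 24.3, 2.61 and 1.81 FPKM in Sal_CP and at 7.99, 5.49 and 4.22 FPKM in CP. Here too Sal_CP replicate 1 was highest, and the other Sal_CP libraries were the lowest of all. The log2 change was -0.08 (SE 0.65, 95% interval -1.49 to 1.33, limma adjusted p = 0.951). Its sign turned to 0.06 after median of ratios rescaling and to 0.03 after quantile normalization. Without Sal_CP replicate 1 the changes were -1.08 for Cxcl1 (limma adjusted p = 0.0700) and -0.77 for Cxcl2 (0.247), both below the median of all tested genes there, -0.30.

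Cxcl5, a neutrophil attractant of epithelial cells, was at 0.0244, 0.0314 and 0 FPKM in Sal_CP and at 5.37, 1.48 and 0.168 FPKM in CP, so that the groups did not overlap and the CP libraries spread over a wide range. The log2 change was -1.38 (SE 0.46, limma adjusted p = 0.406), -3.49 with a pseudocount of 0.1 and -0.74 without CP replicate 1. Cxcl3 stayed at or below 0.111 FPKM and Cxcl15, a lung chemokine, at or below 0.0489 FPKM in every library. Their receptor genes were low as well, Cxcr2 at 0.0281 to 0.186 FPKM and Cxcr1 at 0 to 0.313 FPKM.

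Cxcl5 (90759360 to 90761624), Cxcl3 (90786103 to 90789600), Cxcl15 (90794534 to 90803067), Cxcl1 (90891241 to 90893115) and Cxcl2 (90903871 to 90905938) lie in this order on the plus strand of chromosome 5. The windows of Cxcl1 and Cxcl2 are printed because both ligands were highest in Sal_CP replicate 1 and both carry κB letters close to the start. Cxcl16, Ccl27a, Ccl3 and Ccl4 were also highest in that library and are not among the 7 ligands with a κB match. Only 25 ligands had a window, and any link between these letters and the levels was not tested.
Cxcl1, chr5:90890995-90891294, plus strand: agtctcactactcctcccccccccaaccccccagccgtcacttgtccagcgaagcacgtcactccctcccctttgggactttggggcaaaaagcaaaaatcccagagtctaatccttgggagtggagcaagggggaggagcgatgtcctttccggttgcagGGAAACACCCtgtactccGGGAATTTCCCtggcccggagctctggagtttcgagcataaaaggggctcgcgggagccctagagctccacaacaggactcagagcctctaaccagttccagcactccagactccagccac
Cxcl2, chr5:90903649-90903948, plus strand: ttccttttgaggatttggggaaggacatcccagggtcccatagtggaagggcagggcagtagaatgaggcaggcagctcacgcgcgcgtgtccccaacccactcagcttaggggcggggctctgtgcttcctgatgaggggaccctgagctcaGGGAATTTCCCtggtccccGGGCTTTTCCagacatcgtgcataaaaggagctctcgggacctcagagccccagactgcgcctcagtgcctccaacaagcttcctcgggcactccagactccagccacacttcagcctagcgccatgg
Each held the same run of 10 letters, GGGAATTTCC, at bases 180 to 189 of the window for Cxcl1 and 154 to 163 for Cxcl2, and a match on the other strand overlapped it, shifted by 1 base. A further match lay at 162 to 171 for Cxcl1 and 173 to 182 for Cxcl2. Cxcl3, which was close to 0, had the GGGAATTTCC run too, at 178 to 187 of its own window.

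The inflammatory CC ligands, which draw monocytes, macrophages and T cells, included the most abundant members. Ccl6 and Ccl9, made by myeloid cells of the mouse, lay lower on average in Sal_CP. Ccl6, the most abundant ligand of the family, was at 40.8, 14.5 and 12.2 FPKM in Sal_CP and at 56.7, 38.7 and 22.7 FPKM in CP, a log2 change of -0.89 (SE 0.47, limma adjusted p = 0.474). Ccl9 was at 10.01, 3.76 and 3.07 FPKM in Sal_CP and at 17.4, 9.16 and 6.03 FPKM in CP, a log2 change of -0.87 (SE 0.43, limma adjusted p = 0.470). The Ccl6 change was -1.41 without Sal_CP replicate 1, -0.57 without Sal_CP replicate 3 and -0.59 without CP replicate 1. The Ccl9 change was -1.31 without Sal_CP replicate 1 and -0.50 without CP replicate 1. In both genes Sal_CP replicate 1 fell within the CP range and the other Sal_CP libraries lay below it.

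Ccl3 and Ccl4, the macrophage inflammatory proteins, were at similar mean levels in both groups. Ccl3 was at 14.9, 4.72 and 4.29 FPKM in Sal_CP and at 10.6, 4.01 and 6.34 FPKM in CP, and Ccl4 at 21.8, 4.66 and 3.70 FPKM against 9.75, 5.28 and 6.59 FPKM. Sal_CP replicate 1 was highest for both. The log2 changes were 0.06 (SE 0.44, 95% interval -0.89 to 1.01) and 0.08 (SE 0.50, 95% interval -1.02 to 1.18), and without Sal_CP replicate 1 they were -0.45 and -0.63. Ccl5, a T-cell and monocyte attractant also called RANTES, was at 7.12, 7.96 and 2.64 FPKM in Sal_CP and at 4.24, 6.47 and 3.46 FPKM in CP, a log2 change of 0.20 (SE 0.36, 95% interval -0.58 to 0.99), with groups that overlapped throughout.

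Summed over Ccl3, Ccl4, Ccl5, Ccl6 and Ccl9, the Sal_CP libraries held 94.7, 35.6 and 25.9 FPKM and the CP libraries 98.6, 63.6 and 45.1 FPKM. These 5 genes form a second cluster on chromosome 11, from Ccl5 (83525778 to 83530518) through Ccl9 (83572919 to 83578636), Ccl6 (83587882 to 83593087) and Ccl3 (83647844 to 83649355) to Ccl4 (83662584 to 83664683). Ccr1, a receptor of several of them, was at 2.19, 1.29 and 0.663 FPKM in Sal_CP and 3.12, 2.26 and 1.87 FPKM in CP (log2 change -0.55, SE 0.28, limma adjusted p = 0.470).

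**Figure D4:**
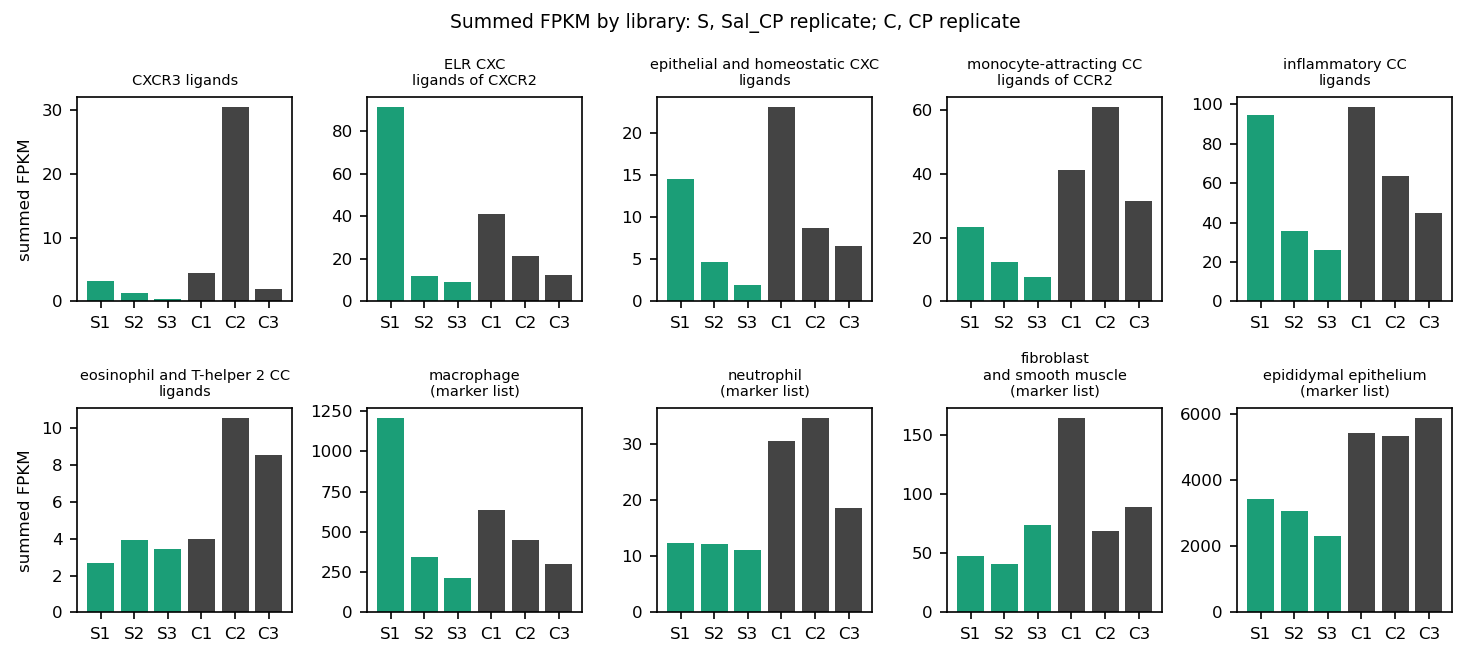
Summed FPKM of the tested members of 6 ligand groups and of 4 marker lists, 1 bar per library (S, Sal_CP, green; C, CP, grey; the number is the replicate; the y axis starts at 0 and differs between panels). In the panel of the group named for CCR2, which includes Ccl8, the 3 Sal_CP bars lie below the CP bars (7.60 to 23.4 against 31.5 to 61.0 FPKM). Mouse Ccl8 is known chiefly as a ligand of CCR8. The CXCR2 ligands and the macrophage list are highest in Sal_CP replicate 1 (91.3 and 1206 FPKM).

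Among epithelial and homeostatic CXC ligands, Cxcl13, which draws B cells through CXCR5, was at 1.84, 0.458 and 0.158 FPKM in Sal_CP and at 15.9, 3.62 and 0.591 FPKM in CP. CP replicate 1 stood above the rest, as it did for Cxcl5, and CP replicate 3 fell within the Sal_CP range. The log2 change was -1.56 (SE 0.65, limma adjusted p = 0.446) and -0.68 without CP replicate 1. Cxcr5 lay between 0.0325 and 0.188 FPKM.

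Cxcl16, a membrane-bound ligand of CXCR6 and a scavenger receptor, was at 12.6, 4.28 and 1.82 FPKM in Sal_CP and at 7.22, 5.06 and 5.94 FPKM in CP, a log2 change of -0.26 (SE 0.46, limma adjusted p = 0.769). Sal_CP replicate 1 was highest, and the other Sal_CP libraries were lower than any CP library. Cxcl16 (chromosome 11, 70453983 to 70459984) shares 552 bases with Zmynd15, a spermatid gene of the opposite strand at 16.3 to 43.6 FPKM. The reads kept strand, per the labels' protocols, but the sources used here do not say whether counting used it. The division of reads in the shared stretch is therefore uncertain. Cxcr6 was at 0.588 to 1.10 FPKM in Sal_CP and 0.436 to 1.02 in CP.

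Cxcl12, the stromal ligand of CXCR4, was not tested, with Sal_CP libraries at 0.583, 0.368 and 0.272 FPKM and CP libraries at 1.22, 0.860 and 0.837 FPKM, without overlap. Cxcl14, an epithelial chemokine, was at 0.573, 0.645 and 0.232 FPKM against 1.53, 0.886 and 0.641 FPKM, with Sal_CP replicate 2 just above CP replicate 3. Cxcl17, a mucosal chemokine, was listed at 0 in every library. Cxcr4 was at 20.6, 4.18 and 2.00 FPKM in Sal_CP and 3.94, 4.38 and 3.15 FPKM in CP (log2 change 0.54, SE 0.55, limma adjusted p = 0.620), highest in Sal_CP replicate 1. Ackr3, the scavenging receptor of Cxcl12, was at 1.77, 1.56 and 2.09 FPKM against 3.58, 2.16 and 2.34 FPKM (log2 change -0.38, SE 0.24, limma adjusted p = 0.512).

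The ligands of CCR4, Ccl17 and Ccl22, which dendritic cells and macrophages make to draw T-helper and regulatory T cells, both lay lower on average in Sal_CP. Ccl17 was at 1.14, 2.18 and 2.13 FPKM in Sal_CP and at 1.96, 6.95 and 6.12 FPKM in CP, a log2 change of -0.99 (SE 0.36, limma adjusted p = 0.433). CP replicate 1 fell among the Sal_CP libraries, and without it the change was -1.44. Ccl22 was at 1.53, 1.75 and 1.29 FPKM against 2.03, 3.58 and 2.43 FPKM, without overlap, a log2 change of -0.53 (SE 0.24, limma adjusted p = 0.464). The 2 genes are neighbours on chromosome 8, Ccl22 at 94745590 to 94751699 and Ccl17 at 94810453 to 94812036, and Ccr4, their receptor, did not exceed 0.148 FPKM.

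Ccl27a, a skin chemokine that binds CCR10, was the tested ligand of the homeostatic group, at 4.08, 2.44 and 3.96 FPKM in Sal_CP and 1.94, 3.50 and 3.82 FPKM in CP. The groups overlapped, with a log2 change of 0.15 (SE 0.28, 95% interval -0.46 to 0.76, limma adjusted p = 0.783). Ccl27a and Ccl27b, and Ccl21a and Ccl21d, are near-identical copies on chromosome 4, so the division of reads within each pair is uncertain. Ccr10 lay between 0 and 0.153 FPKM.

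Of the 17 ligands under the filter, 15 were above 0 in a library, and Ccl20, a mucosal ligand of CCR6, and Cxcl17 were listed at 0 in all 6. In 4 of the 17 a single library reached 1 FPKM: Ccl24 at 1.94 and Cxcl14 at 1.53 and Cxcl12 at 1.22 in CP replicate 1, and Ccl21a at 2.51 in Sal_CP replicate 1. Ccl24, an eosinophil attractant, was at 0.118, 0.388 and 0.375 FPKM in Sal_CP and 1.94, 0.876 and 0.165 FPKM in CP. Ccl21a, the lymph node ligand of CCR7, was at 2.51, 0.194 and 0.139 FPKM against 0.677, 0.478 and 0.621 FPKM. Cxcl12 and Ccl25, the thymic ligand of CCR9, were the 2 of the 17 with every Sal_CP library below every CP library. Ccl25 was at 0.182 to 0.232 FPKM in Sal_CP against 0.239 to 0.457 FPKM in CP. The share of 10.0% given above is of genes over the filter, and no share was counted for genes under it. Ccl28, a mucosal chemokine, was at 0.346 to 0.556 FPKM in all libraries. Ccl1, Ccl19 and Ccl27b were listed at 0 in all Sal_CP libraries and did not exceed 0.430 FPKM in CP, and Ccl26 was above 0 in 1 library only, Sal_CP replicate 2, at 0.401 FPKM.

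**Figure D5:**
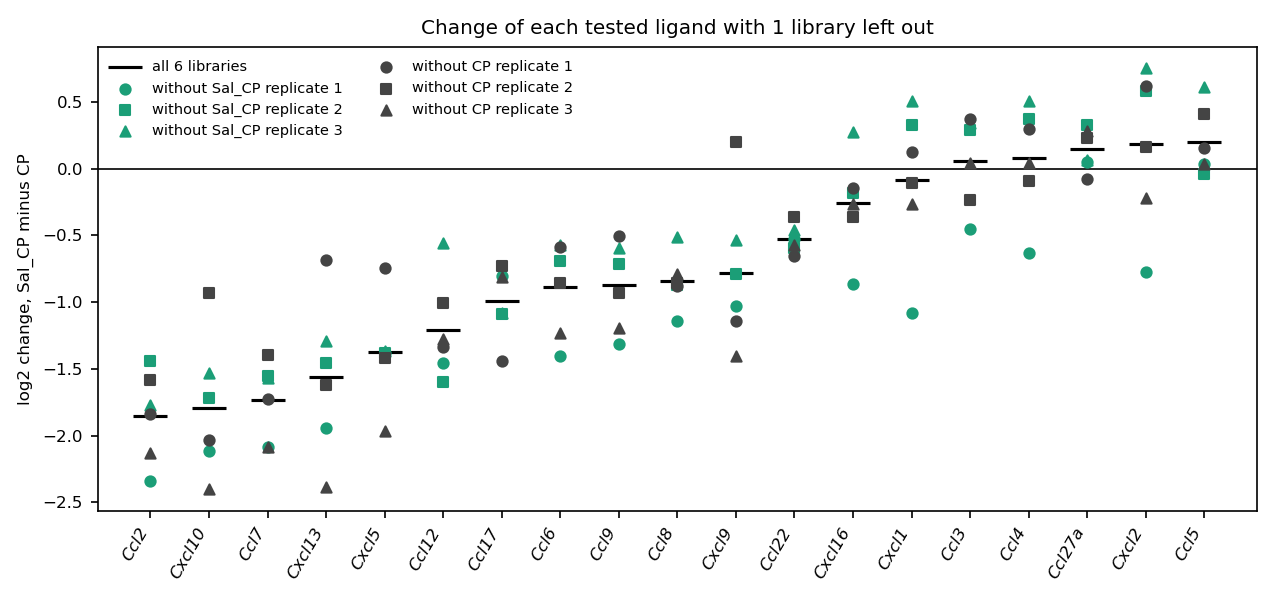
Log2 change of each of the 19 ligands with all 6 libraries (dash) and with 1 library left out (green, a Sal_CP library; grey, a CP library; circle, square and triangle for replicates 1, 2 and 3). Ccl2 stays between -2.34 and -1.44 and Ccl7 between -2.08 and -1.40, while Cxcl1 runs from -1.08 without Sal_CP replicate 1 to 0.51 without Sal_CP replicate 3.

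With Sal_CP replicate 1 left out, 17 of the 19 ligands lay below 0, against 14 with all libraries and 12 without Sal_CP replicate 3. The smallest limma adjusted p of a ligand was 0.0664 without Sal_CP replicate 1, for Ccl2, Ccl7 and Ccl8, and 0 ligands passed with any library left out. With Sal_CP replicate 1 left out the median change of the 19 was -1.08, and with Sal_CP replicate 3 left out it was -0.54, where the medians of all tested genes were -0.30 and -0.04. Across the 16 settings tried beside a fit with the replicate number as a block, Ccl2 stayed between -2.34 and -1.44 and Ccl7 between -2.08 and -1.40.

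Genes that drive or serve chemokines were counted in 6 lists, and 0 of their tested members passed limma's threshold over all genes. The counts below 0 given for these lists stand beside a share of 60.5% of all tested genes. These counts include Il6, Cma1 and Mmp9, which reached the filter only through CP, and describe the lists alone. Of 19 chemokine receptors 5 were tested, 3 of them below 0. Of 5 atypical receptors, which bind chemokines without the usual signal, 3 were tested, 2 of them below 0; Ccrl2, which concentrates chemerin, was at 28.1, 3.00 and 2.61 FPKM in Sal_CP and 5.19, 5.42 and 3.37 FPKM in CP. The other chemokine ligands Cx3cl1 (log2 change -0.51, limma adjusted p = 0.464) and Pf4, a platelet and macrophage chemokine (-0.70, limma adjusted p = 0.533), both lay below 0, and Xcl1 and Ppbp were under the filter.

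Of 19 inducing cytokines 18 were listed and 7 tested, 5 of them below 0. Tnf, a main inducer of chemokines through NF-κB, was at 46.8, 4.27 and 2.84 FPKM in Sal_CP and 9.76, 11.5 and 5.03 FPKM in CP, and Il1a at 44.4, 2.82 and 2.50 FPKM against 7.20, 7.02 and 4.43 FPKM. Both were highest in Sal_CP replicate 1, as Cxcl1, Cxcl2, Ccl3 and Ccl4 were, and lowest in the other Sal_CP libraries. Csf1, the macrophage growth factor, and Il6 had the smallest p of the list. Their log2 changes were -0.67 (SE 0.25, limma adjusted p = 0.439) and -0.72 (SE 0.30, limma adjusted p = 0.444). Il6 reached the filter only through CP, where it averaged 1.66 FPKM against 0.627 FPKM in Sal_CP. Of the 28 listed genes of receptor signalling 25 were tested, 19 of them below 0, with Rgs1 at 0.56 (limma adjusted p = 0.497) and Grk5 at -0.42 (limma adjusted p = 0.503).

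Of 12 proteases that cut or shed chemokines 9 were tested, 7 of them below 0. Cma1, the mast cell chymase, was at 0, 0 and 0.0556 FPKM in Sal_CP and 5.44, 1.99 and 0.188 FPKM in CP, without overlap (log2 change -1.48, SE 0.46, limma adjusted p = 0.367). Within CP it was highest in replicate 1 and lowest in replicate 3, as Cxcl5 and Cxcl13 were. Mmp9, the gelatinase, had a log2 change of -0.58 (SE 0.23, limma adjusted p = 0.444). Cma1 and Mmp9 reached the filter only through CP, where they averaged 2.54 and 1.62 FPKM against 0.0185 and 0.743 FPKM in Sal_CP. Dpp4, which trims Cxcl10 and other chemokines at the amino end, was at 6.42, 5.73 and 6.96 FPKM in Sal_CP and 11.8, 8.20 and 8.85 FPKM in CP, without overlap (log2 change -0.52, SE 0.26, limma adjusted p = 0.472).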

How the data were processed

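RNA of 6 libraries was sequenced as strand-keeping paired reads, per the labels' protocols. The submitters' processing notes name GRCm38. No source used here gives the aligner, the quantifier or the test behind the authors' p-values. The authors deposited FPKM for 36842 genes. They also deposited a ratio (fold) of group means, its log2, and a p-value and q-value per gene. Fragment depth is unknown. Ratios of low values of a gene, another library over Sal_CP replicate 1, had their peak at 1.20 to 1.34. The peak held only 5.96 to 7.24% of such pairs. It is a hint that 1 fragment is worth least, and depth is greatest, in Sal_CP replicate 1. FPKM summed to 565944 to 697070 per library, with mitochondrially encoded genes at 29.0 to 38.1% in Sal_CP and 36.6 to 50.4% in CP.

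Values were taken as log2(FPKM + 1), which understates the change of low genes, for the 12241 genes averaging 1 FPKM or more. limma 3.58.1 in R 4.3.3 (trend on, robust off) compared the groups, with Benjamini-Hochberg adjustment over all genes tested. It was tested on simulated data. The ± is the SD. Every ligand over the filter is named, with those under it that reach 1 FPKM in a library or are listed at 0 throughout. Others are named as examples chosen after their values were seen. Lists name called or else the genes of smallest p, and receptors of tested ligands, of which 1 is not reported here. Protein sequences were not used here; promoter windows are from RefSeq (GRCm38.p6). The ligands, lists and tests were chosen with earlier results of these data known. Other pseudocounts, filters, scalings, limma options, left-out libraries and the replicate number as a block were tried. Figures used matplotlib 3.10.9.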

Additional observations from a re-analysis of the deposited data

How the results depend on the processing

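The count of ligands past limma's threshold was 0 at 16 of 17 alternatives, and 7 with the replicate number as a block (Ccl2, Ccl7, Ccl12, Ccl17, Cxcl5, Cxcl10 and Cxcl13), a fit that called 280 genes in all and 1 list gene, Cma1. Same-numbered libraries deviated together at r = 0.196 for number 1, -0.115 for 2 and -0.0644 for 3, and Sal_CP replicates 2 and 3 did not correlate best with their own number, so the numbers are not taken to pair the libraries. Genes called, 9 in all, were 0 without a filter, 0 after median of ratios rescaling, 5 after quantile normalization and 0 to 13 with a library left out; list genes called were 0 to 1 there. The ligands' median of -0.84 was -0.19 with no filter, over 34 ligands. After median of ratios rescaling the median of all genes moved from -0.12 to 0.01, and the ligands' distance from it was -0.71 (-0.72 before). Above 5 FPKM on average there were 12 ligands. Of the 19 ligands, 11 kept the sign of their change at every setting that tested them (Ccl8, Ccl17, Ccl22, Cxcl5 and Cxcl13 were not tested above 5 FPKM). The others changed sign with a library left out, over -1.08 to 0.51 for Cxcl1, -0.77 to 0.75 for Cxcl2, -0.45 to 0.37 for Ccl3, -0.63 to 0.51 for Ccl4, -0.0389 to 0.61 for Ccl5, -0.86 to 0.27 for Cxcl16, -0.0745 to 0.33 for Ccl27a and -1.41 to 0.20 for Cxcl9; Cxcl1 also did after median of ratios rescaling (0.0551) and quantile normalization (0.0303). The cause of these shifts was not tested. Unknown depth limits the precision of values near 0.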

Other observations

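Single libraries were set apart by different ligands. Of 12241 tested genes, 280 stood in Sal_CP replicate 1 at 2 times or more the level of every other library, among them Cxcl1, Cxcl2 and Ccl4, where the other 5 libraries had 19 to 81 such genes. In CP replicate 1 these were 81 genes, with Cxcl5 and Cxcl13 among them, and in CP replicate 2 they were 29 genes, with Cxcl9 and Cxcl10 among them. Sal_CP replicate 2, Sal_CP replicate 3 and CP replicate 3 had 0 such ligands. In Sal_CP replicate 3, 359 genes stood at 1/2 or less of every other library, among them Ccl8, Ccl12, Cxcl5, Cxcl10, Cxcl13 and Cxcl16.

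The balance of monocyte and neutrophil attractants also differed by library. The summed FPKM of Ccl2, Ccl7, Ccl8 and Ccl12 divided by that of Cxcl1, Cxcl2 and Cxcl5 took the values 0.256, 1.04 and 0.847 in the Sal_CP libraries and 1.01, 2.88 and 2.56 in the CP libraries, with Sal_CP replicate 2 and CP replicate 1 overlapping. This ratio was formed after the values were seen and was not tested.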
